A study of Mus musculus with 20 samples.

Results

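Mouse colon fibroblasts that had received irradiated APTK medium were compared with untreated fibroblasts of the same kind, gene by gene. The comparison used 8 of the 20 libraries of the series, chosen by their labels alone: 4 libraries labelled as irradiated APTK (I to IV) and 4 labelled as untreated or wild-type (I to IV). All of the fibroblasts were C57BL6/J colon fibroblasts grown in 2D on culture plates in serum-containing Advanced DMEM F12, and polyA RNA was counted per gene. The stimulated fibroblasts received organoid-conditioned medium for 24 hours, and the irradiated arm carries the label of 5 fractions of 2 Gy. Plain APTK medium and irradiated APTKA medium, with 4 libraries each, serve below only to show where irradiated APTK medium differed from the media most like it. The series title places the work in therapy resistance of rectal cancer and names inflammatory fibroblasts.

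Several properties of the groups limit them as a model. The submitters' labels do not state which cells received the radiation, the organoids or the fibroblasts, and neither APTK nor APTKA is spelled out. No group received unconditioned organoid medium, and no group was irradiated without organoid medium, so the medium itself, what the organoids release and the radiation cannot be told apart in the comparison with untreated cells. The replicate numbers are not tied to separate cultures or animals, so the p-values measure the spread between libraries, which may be technical. In bulk libraries, fewer cells of a type and less RNA per cell cannot be told apart either.

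Fibroblasts of the gut wall make the collagenous matrix and the growth factors, BMP antagonists and Wnt cofactors of the epithelial niche, and they answer signals from tumour cells by making chemokines, interferon-response proteins and matrix-remodelling enzymes. Hypoxia-inducible factors switch on glucose uptake, glycolysis and lactate export, the p53 protein switches on cell cycle inhibitors and death genes after DNA damage, and the kinase ERK switches on ETS-family factors together with the Sprouty and DUSP proteins that shut it off. The integrated stress response, through the factors ATF4 and CHOP, switches on amino acid supply and stress genes when translation is slowed.

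The libraries held between 17.3 M and 29.2 M gene counts (M is the mega prefix) in irradiated APTK fibroblasts, and between 24.1 M and 28.5 M in untreated fibroblasts. Libraries I and II of the irradiated APTK group were the shallower ones, at 19.6 M and 17.3 M. Mitochondrially encoded genes took 1.21%, 1.23%, 0.534% and 1.01% of the counts in irradiated APTK libraries I to IV, against 0.538% to 0.671% in the untreated libraries. Of 13 such genes looked up, 6 had no count in these 8 libraries, so the shares leave those genes out. On the second principal component of the irradiated APTK, APTK and untreated libraries (12.04% of the variance), library II of the irradiated APTK group lay at -41.0, apart from I and III at -4.23 and -5.44. Library IV lay at 14.1 there, near the plain APTK libraries at 7.40 to 11.49. On the second component of the 8 compared libraries alone (14.28% of the variance), library IV lay at 19.0, beside I at 14.8 and III at 8.43. Library II lay at -36.2 there. Among pairs of irradiated APTK libraries, I and IV differed least, with a chi-square per degree of freedom of 16.2 against 30.8 to 83.4. Whether a library was exchanged cannot be told from the labels and was not tested. Where a call named below was lost without library II or IV, that is said beside the gene.

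A total of 14820 genes passed the filter on low counts. Irradiated APTK medium was followed by higher counts of 3183 genes (21.5% of those tested) and lower counts of 3285 genes (22.2%) at an adjusted p of at most 0.05 by edgeR's quasi-likelihood test, the test behind every adjusted p given here. Together these were 6468 genes, or 43.6%, and for 4605 genes (31.1%) the call came with no overlap between the libraries of the 2 groups. At least 2-fold changes numbered 496 upward and 433 downward, and at least 4-fold changes 65 and 71. Without library II the counts were 3107 higher and 3335 lower, and without library IV they were 3155 and 3206. The median log2 fold change over all genes was 0.010. With this much of the transcriptome called, a share of a gene list near 22% in a direction says nothing particular about that list.

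**Figure D1:**
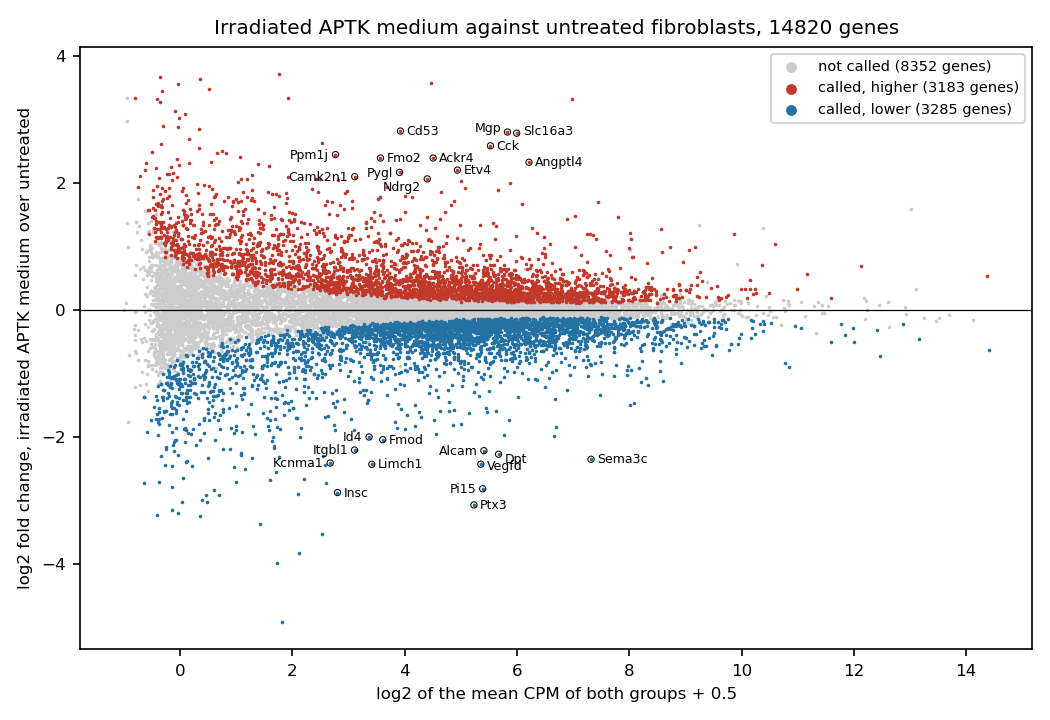
Each point is 1 of 14820 genes, with log2 of its mean CPM over both groups on the x axis and the log2 fold change of irradiated APTK medium over untreated on the y axis. The 3183 genes called higher are red, the 3285 called lower are blue, and the 12 largest rises and 12 largest falls among genes of middle or higher level are named.

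Genes of glycolysis and the hypoxia response rose together. Of 34 members, all tested, 27 were higher (against 21.5% of all genes), 2 were lower and 5 passed no test, and their median log2 fold change was 0.54. Levels below are CPM (counts scaled to a library total of 1e6 after TMM normalization), listed in the order of libraries I to IV. Slc16a3, which exports lactate, stood at 127, 81.5, 128 and 106 CPM in irradiated APTK libraries and at 17.0, 13.6, 14.9 and 18.6 CPM in untreated libraries (log2 fold change 2.78 ± 0.12, adjusted p = 1.14e-13). Bnip3, a mitochondrial protein of hypoxic mitophagy, stood at 38.7, 57.1, 41.5 and 40.2 CPM in irradiated APTK libraries and at 15.4, 12.7, 13.7 and 12.2 CPM in untreated libraries (log2 fold change 1.71 ± 0.09, adjusted p = 1.98e-13). In both genes the lowest irradiated APTK library lay far above the highest untreated library, although the opposite-strand transcript Gm45507 overlaps Bnip3.

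Vegfa, the main angiogenic factor of hypoxia, stood at 368, 300.0, 327 and 370.5 CPM in irradiated APTK libraries against 209.8, 198, 192 and 164 CPM in untreated libraries (log2 fold change 0.84 ± 0.08, adjusted p = 3.43e-09). Aldoc, a brain-type aldolase of glycolysis, had few counts, at 0.989, 1.26, 0.842 and 1.01 CPM in irradiated APTK libraries and 0.240, 0.302, 0.156 and 0.112 CPM in untreated libraries, and it rose as well (log2 fold change 2.32 ± 0.33, adjusted p = 1.83e-06). Pdk1, the kinase that keeps pyruvate out of the mitochondria, averaged 66.1 ± 5.77 CPM in irradiated APTK libraries against 36.4 ± 0.905 CPM in untreated libraries (SD, n = 4 each), and its libraries did not overlap. The members did not all follow. Ndrg1, a stress gene usually induced by low oxygen, fell to 54.6, 46.1, 48.9 and 67.7 CPM in irradiated APTK libraries, against 122, 124, 126 and 135 CPM in untreated libraries (log2 fold change -1.22 ± 0.09, adjusted p = 3.39e-10). Hk2, a hexokinase, fell by less (log2 fold change -0.34 ± 0.09, adjusted p = 0.0038), with library I of the irradiated APTK group at the untreated level. Car9, Eno1, Ddit4, Pkm and Ero1l were not called. The count of risen members lay between 25 and 27 under every alternative processing tried. In plain APTK medium, compared with the same untreated libraries, 27 members were higher and 1 was lower, where 20.9% of all genes were higher and 22.5% lower.

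The promoters of the 3 members with the largest rises are shown because these members moved together. The core of the hypoxia-inducible factor element, ACGTG, is in capitals where it occurs on either strand. Sequences are from RefSeq on GRCm38.p6, from 250 bases before to 50 bases after the start, written 5′ to 3′ on the gene's strand: Slc16a3 at chr11:120948817-120949116 (plus strand), Aldoc at chr11:78322823-78323122 (plus strand) and Bnip3 at chr7:138909457-138909756 (minus strand).
Slc16a3: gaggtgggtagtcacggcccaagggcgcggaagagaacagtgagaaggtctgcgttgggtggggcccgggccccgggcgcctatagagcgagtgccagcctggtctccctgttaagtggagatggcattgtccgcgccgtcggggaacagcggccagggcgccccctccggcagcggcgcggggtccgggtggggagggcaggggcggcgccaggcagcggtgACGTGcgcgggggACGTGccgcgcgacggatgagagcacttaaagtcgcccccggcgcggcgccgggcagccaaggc
Aldoc: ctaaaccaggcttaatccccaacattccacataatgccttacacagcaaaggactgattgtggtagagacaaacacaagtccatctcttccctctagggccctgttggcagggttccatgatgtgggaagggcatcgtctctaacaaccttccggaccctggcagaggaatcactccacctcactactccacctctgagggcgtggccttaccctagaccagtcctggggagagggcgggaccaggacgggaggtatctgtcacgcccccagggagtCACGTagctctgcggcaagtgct
Bnip3: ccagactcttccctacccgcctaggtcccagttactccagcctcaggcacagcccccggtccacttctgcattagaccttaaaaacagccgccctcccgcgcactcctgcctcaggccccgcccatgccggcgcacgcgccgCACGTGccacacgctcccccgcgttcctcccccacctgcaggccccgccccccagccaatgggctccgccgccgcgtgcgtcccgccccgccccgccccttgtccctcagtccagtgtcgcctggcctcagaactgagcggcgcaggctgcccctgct
Slc16a3 held 2 matches and Aldoc 1, and the 2 matches of Bnip3 lie on opposite strands and overlap. Of 31 members with a promoter in the RefSeq table, 17 (54.8%) held the motif, against 5315 of 27025 promoters overall (19.7%) and 25.6% of the promoters of tested genes. A match is a run of letters and not a measured binding site. The share counts members whether they rose, fell or were not called, so it describes the list and not the comparison with untreated.

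Genes downstream of ERK signalling rose in part. Of 26 immediate early and MAPK feedback genes, 13 were higher, 3 were lower and 10 were not called, with a median log2 fold change of 0.62. Etv4, an ETS factor of FGF and ERK signalling, stood at 54.8, 50.6, 60.9 and 32.5 CPM in irradiated APTK libraries against 10.2, 10.8, 10.3 and 11.9 CPM in untreated libraries (log2 fold change 2.203 ± 0.16, adjusted p = 9.87e-10). Its relative Etv1 reached 4.34, 5.68, 3.96 and 2.69 CPM in irradiated APTK libraries, against 0.720, 1.29, 0.586 and 0.822 CPM in untreated libraries (log2 fold change 2.27 ± 0.23, adjusted p = 9.65e-09). Spry4, a Sprouty inhibitor of the pathway, stood at 15.0, 21.5, 17.0 and 16.6 CPM in irradiated APTK libraries and 4.88, 6.56, 4.92 and 4.18 CPM in untreated libraries (log2 fold change 1.77 ± 0.14, adjusted p = 3.33e-10). Library IV was the lowest of its group in Etv4 and Etv1, but still above every untreated library. The phosphatases Dusp4 and Dusp6, which switch off ERK and were picked after their values were seen, rose by 1.20 and 1.10 on the log2 scale. The AP-1 subunits Jun and Fosl2 and the growth regulator Myc were the 3 members that fell, by log2 fold changes of -0.78, -0.36 and -0.40. Fos, an AP-1 subunit as well, was not called against untreated (log2 fold change -0.28 ± 0.19, adjusted p = 0.259). The 13 rises were 13 or 14 under every alternative.

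Interferon-stimulated genes were higher in part. Of 34 type I interferon-stimulated genes, 9 rose, 1 fell and 24 were not called, so the risen share was close to that of all genes (21.5%), while the list's median log2 fold change was 0.35. Mx1, an antiviral GTPase, stood at 1.21, 1.72, 1.02 and 3.55 CPM in irradiated APTK libraries and 0.680, 0.776, 0.352 and 0.523 CPM in untreated libraries (log2 fold change 1.71 ± 0.38, adjusted p = 8.54e-04). Rsad2 (viperin) stood at 13.2, 13.5, 8.17 and 23.8 CPM in irradiated APTK libraries and 6.72, 4.18, 5.70 and 4.82 CPM in untreated libraries (log2 fold change 1.45 ± 0.38, adjusted p = 0.00522). Library IV was the highest of its group in both genes, and library III the lowest. Oasl1, an oligoadenylate synthetase-like protein, averaged 3.10 ± 1.27 CPM in irradiated APTK libraries and 1.20 ± 0.285 CPM in untreated libraries (SD, n = 4 each; log2 fold change 1.35 ± 0.28, adjusted p = 3.23e-04). Isg15, a ubiquitin-like modifier, stood at 12.4, 16.1, 11.3 and 19.4 CPM in irradiated APTK libraries against 10.00, 10.2, 7.499 and 6.61 CPM in untreated libraries (log2 fold change 0.79 ± 0.28, adjusted p = 0.029). The call of Isg15 was lost without library II or IV (adjusted p = 0.0668 and 0.103), and without library III or IV of the untreated group (0.0731 and 0.0836). Bst2 (tetherin) was the member that fell, to 27.0, 25.3, 27.1 and 33.5 CPM in irradiated APTK libraries, against 47.1, 40.9, 46.6 and 40.8 CPM in untreated libraries (log2 fold change -0.63 ± 0.18, adjusted p = 0.00864). Without library III, the lowest of its group in Mx1 and Rsad2, 14 members rose in place of 9. In plain APTK medium 29 of the 34 were higher than in untreated fibroblasts (20.9% of all genes were) and none was lower.

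The promoter of Rsad2 is shown as the interferon counterpart. The letters GAAANNGAA, part of the interferon-stimulated response element, are in capitals; here they occur on the reverse strand. It lies at chr12:26456403-26456702 on the minus strand (RefSeq, GRCm38.p6, the same window).
Rsad2: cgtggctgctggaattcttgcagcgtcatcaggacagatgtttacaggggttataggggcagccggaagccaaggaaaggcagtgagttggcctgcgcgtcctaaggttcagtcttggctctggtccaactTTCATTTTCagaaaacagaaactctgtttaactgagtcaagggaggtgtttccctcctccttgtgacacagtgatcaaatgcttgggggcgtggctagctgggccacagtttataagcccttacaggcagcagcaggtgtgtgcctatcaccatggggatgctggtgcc
The motif occurred in 14 of the 25 members with a promoter in the table (56%), against 8.57% of all promoters and 6.98% of the promoters of tested genes. The windows of Oasl1 and Cmpk2 held no match. Here too the share counts members whatever their change and describes the list.

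Interferon-inducible GTPases, which attack intracellular pathogens, rose in 6 of 14 tested members and fell in 1. Igtp stood at 16.6, 20.8, 12.03 and 21.5 CPM in irradiated APTK libraries against 11.3, 7.55, 8.40 and 8.78 CPM in untreated libraries (log2 fold change 0.97 ± 0.22, adjusted p = 0.00186), with no overlap. Its gene shares exon sequence with Irgm2 on the same strand, so reads of the 2 cannot be told apart with certainty. Iigp1 and Tgtp2 had log2 fold changes of 0.93 and 0.98 and were called. Without library II both calls were lost (adjusted p = 0.0585 for Iigp1 and 0.104 for Tgtp2). That of Tgtp2 was also lost without library IV (0.0529), without untreated library III or IV (0.0665 and 0.0590) and by DESeq2 (0.0643). Gbp2 was the member that fell (log2 fold change -0.74 ± 0.15, adjusted p = 4.65e-04). The 6 rises became 3 without library II and 3 without library IV, and 3 without library III of the untreated group. Members of these families are near copies of each other, and how multiply mapped reads were counted is not given in the sources used here.

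Antigen presentation genes moved both ways, 3 higher and 6 lower among 17 tested, where 21.5% and 22.2% of all genes were. H2-M3, a nonclassical class I molecule, averaged 14.3 ± 1.505 CPM in irradiated APTK libraries and 7.48 ± 0.985 CPM in untreated libraries (SD, n = 4 each; log2 fold change 0.94 ± 0.11, adjusted p = 1.84e-07). Tap2, a subunit of the peptide transporter, rose by 0.41 on the log2 scale. The class II gene H2-Ab1 was the other member that rose, at a level of 0.625 to 1.09 CPM in irradiated APTK libraries and 0 to 0.240 CPM in untreated libraries. Erap1, which trims peptides, fell to 37.2, 47.5, 40.6 and 37.8 CPM in irradiated APTK libraries, against 70.3, 69.4, 70.3 and 71.3 CPM in untreated libraries (log2 fold change -0.79 ± 0.07, adjusted p = 2.07e-10). The immunoproteasome genes Psmb10 and Psme2 fell as well, by log2 fold changes of -0.78 and -0.45.

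Most p53 target genes were lower. Of 30 members, all tested, 23 fell (against 22.2% of all genes), 3 rose and 4 were not called, with a median log2 fold change of -0.43. Bbc3 (PUMA), which triggers apoptosis, stood at 24.2, 10.8, 25.9 and 26.4 CPM in irradiated APTK libraries against 62.6, 65.4, 65.5 and 66.0 CPM in untreated libraries (log2 fold change -1.55 ± 0.16, adjusted p = 4.86e-07). Mdm2, which degrades p53, stood at 202, 227, 197 and 178 CPM in irradiated APTK libraries against 283, 312, 302 and 255 CPM in untreated libraries (log2 fold change -0.52 ± 0.07, adjusted p = 7.53e-07). Both genes were lower in every irradiated APTK library than in any untreated library, and library II was the lowest of its group in Bbc3 and the highest in Mdm2. Cdkn1a (p21), which stops the cell cycle, stood at 129, 115, 122 and 138 CPM in irradiated APTK libraries against 201, 174, 174 and 159 CPM in untreated libraries (log2 fold change -0.49 ± 0.07, adjusted p = 1.85e-06). It shares exon sequence with the opposite-strand transcript AC167363.2. Eda2r, a death receptor of the TNF receptor family, averaged 138 ± 16.1 CPM in irradiated APTK libraries and 283 ± 16.8 CPM in untreated libraries (SD, n = 4 each; log2 fold change -1.04 ± 0.07, adjusted p = 1.74e-12). Sesn2, a sestrin that both p53 and ATF4 can induce, stood at 80.6, 87.5, 76.6 and 77.0 CPM in irradiated APTK libraries against 158, 167, 175 and 158 CPM in untreated libraries (log2 fold change -1.03 ± 0.06, adjusted p = 8.26e-14). Trp53 itself was not called (log2 fold change -0.26 ± 0.12, adjusted p = 0.0785). The members that rose were Sesn1, Plk3 and Dram1, by 0.34, 0.47 and 0.73 on the log2 scale, and those not called were Perp, Ddb2, Plk2 and Ptprv. The number that fell was 20 to 23 under every alternative. Plain APTK medium, set against the same untreated libraries, gave 20 lower and 2 higher (22.5% and 20.9% of all genes).

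Genes of the integrated stress response fell almost throughout. Of 31 members 28 were lower, 1 was higher and 2 were not called, and the median log2 fold change was -0.59. Trib3, a pseudokinase that ATF4 and CHOP switch on, stood at 23.4, 41.0, 28.5 and 68.9 CPM in irradiated APTK libraries against 173, 172, 183 and 114 CPM in untreated libraries (log2 fold change -1.98 ± 0.25, adjusted p = 8.40e-06). Chac1, which degrades glutathione, stood at 9.12, 21.3, 10.3 and 13.7 CPM in irradiated APTK libraries against 35.7, 41.3, 45.3 and 39.8 CPM in untreated libraries (log2 fold change -1.59 ± 0.17, adjusted p = 3.29e-07). Stc2, a secreted stanniocalcin, stood at 2.53, 2.58, 2.67 and 2.54 CPM in irradiated APTK libraries against 9.80, 8.15, 9.33 and 6.16 CPM in untreated libraries (log2 fold change -1.69 ± 0.15, adjusted p = 6.13e-10). None of these 3 genes overlapped between the groups, and library IV was the highest of its group in Trib3. Atf3, a stress transcription factor, had few counts and fell by a log2 fold change of -1.72. Pycr1, of proline synthesis, was the member that rose (log2 fold change 0.41 ± 0.08, adjusted p = 6.76e-05), and Cebpb and Aldh18a1 were not called. The fallen count was 27 or 28 under every alternative, and plain APTK medium gave 27 lower and 1 higher against the same untreated libraries (22.5% and 20.9% of all genes).

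**Figure D2:**
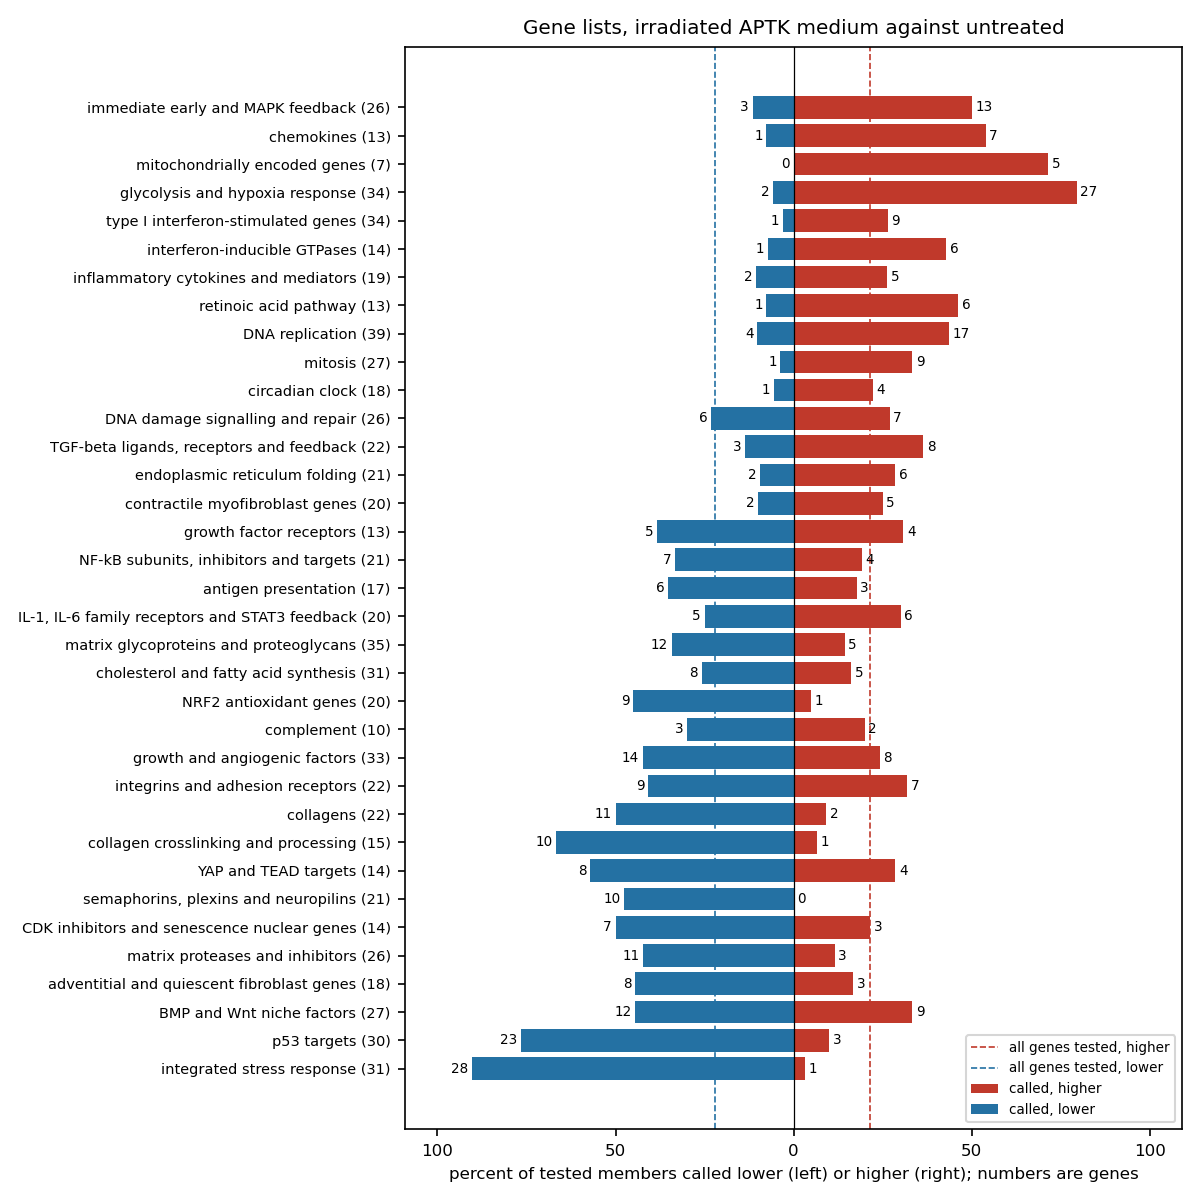
For each of 35 gene lists (tested members in brackets), bars show the percent of tested members called higher (red, right) or lower (blue, left) in irradiated APTK medium against untreated, with the number beside each bar. Dashed lines mark 21.5% and 22.2%, the shares among all 14820 genes. Glycolysis and hypoxia stand out on the higher side, with 27 of 34 members, and the integrated stress response and p53 targets on the lower side, with 28 of 31 and 23 of 30.

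**Figure D3:**
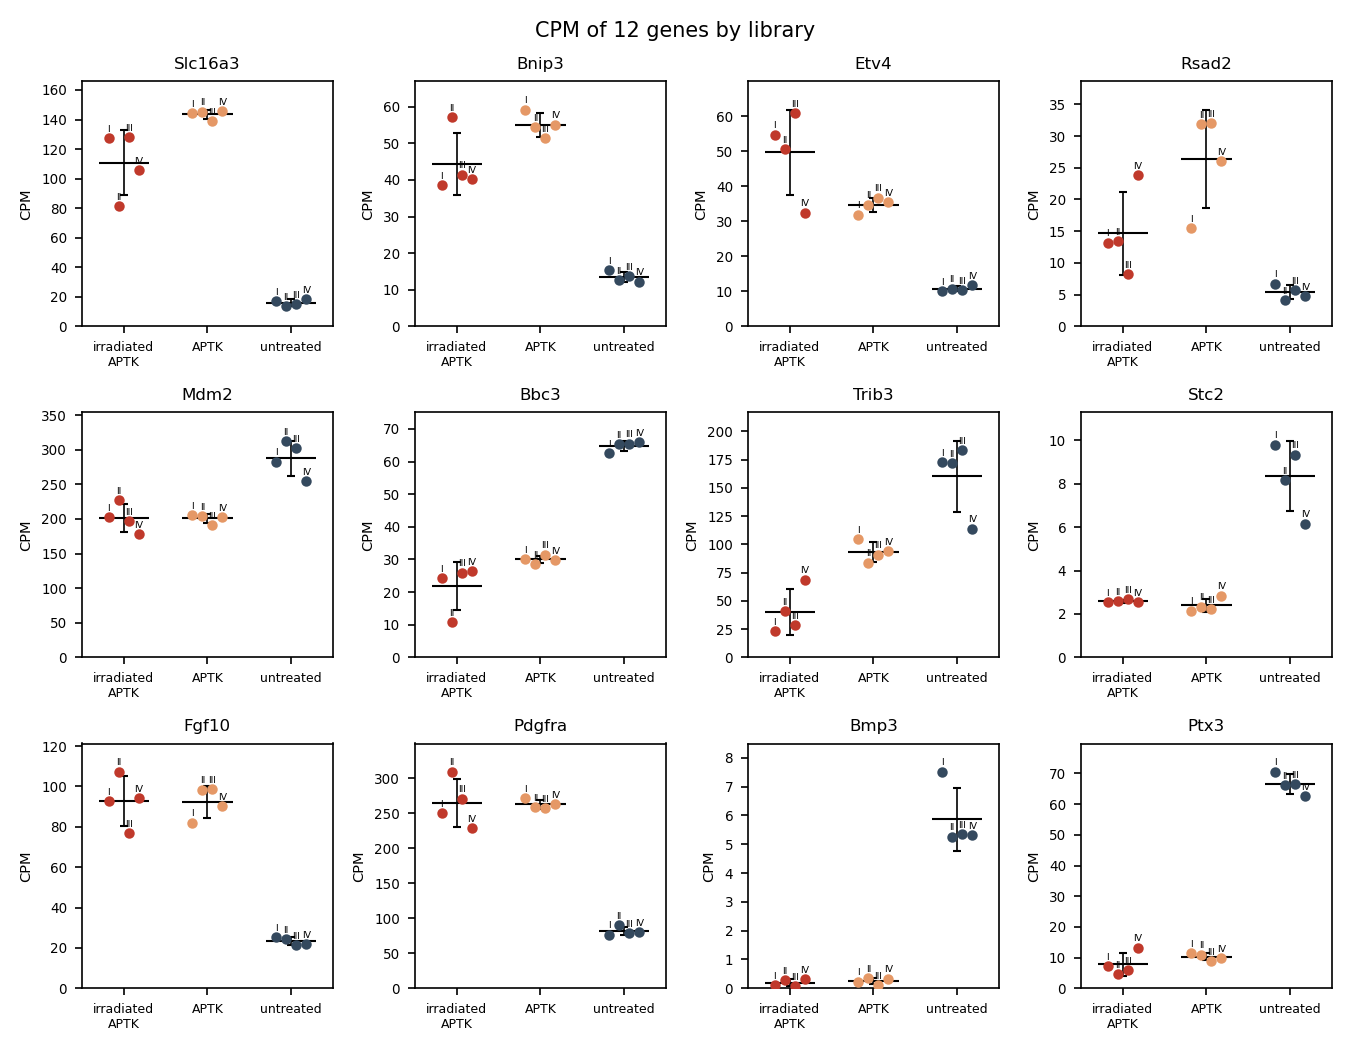
CPM of 12 genes in the 4 libraries (points, I to IV) of irradiated APTK, APTK and untreated fibroblasts, with the mean as a line and the SD as bars. Slc16a3, Bnip3, Etv4, Rsad2, Fgf10 and Pdgfra lie higher in irradiated APTK than in untreated libraries, and Mdm2, Bbc3, Trib3, Stc2, Bmp3 and Ptx3 lie lower.

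The largest rises among genes at a middle or higher level went beyond these lists. Cd53, a tetraspanin better known from leukocytes, stood at 26.5, 40.7, 30.1 and 5.89 CPM in irradiated APTK libraries and 3.60, 3.62, 3.20 and 4.03 CPM in untreated libraries (log2 fold change 2.82 ± 0.39, adjusted p = 2.47e-05). Mgp, a matrix protein that inhibits calcification, stood at 101, 98.7, 162 and 33.1 CPM in irradiated APTK libraries and 16.6, 14.2, 14.5 and 11.4 CPM in untreated libraries (log2 fold change 2.80 ± 0.36, adjusted p = 1.03e-05). Ackr4, a scavenging chemokine receptor, stood at 41.1, 50.4, 42.5 and 15.7 CPM in irradiated APTK libraries and 6.56, 6.90, 7.42 and 7.43 CPM in untreated libraries (log2 fold change 2.39 ± 0.25, adjusted p = 8.74e-07), and it overlaps Acad11 on the opposite strand. In all 3 genes library IV was far below libraries I to III yet above the untreated libraries. Without library IV the log2 fold changes were 3.16 for Cd53, 3.10 for Mgp and 2.65 for Ackr4. Pygl, a glycogen phosphorylase, rose with little spread between libraries (log2 fold change 2.17 ± 0.10, adjusted p = 1.80e-15). Ndrg2, a relative of Ndrg1, stood at 30.2, 35.4, 34.1 and 33.8 CPM in irradiated APTK libraries and 7.40, 7.42, 7.54 and 9.52 CPM in untreated libraries (log2 fold change 2.06 ± 0.08, adjusted p = 2.43e-16). Cck, the gut hormone cholecystokinin, rose as well (log2 fold change 2.59 ± 0.29, adjusted p = 2.69e-06), as did Angptl4, an inhibitor of lipoprotein lipase (log2 fold change 2.33 ± 0.27, adjusted p = 3.00e-06). Ppm1j, Fmo2 and Camk2n1, a phosphatase, a monooxygenase and an inhibitor of CaM kinase, rose by 2.45, 2.39 and 2.10 on the log2 scale.

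Of the 12 largest falls the first was that of Ptx3, a pentraxin of innate immunity, which stood at 7.15, 4.70, 5.96 and 13.2 CPM in irradiated APTK libraries and 70.6, 66.3, 66.6 and 62.7 CPM in untreated libraries (log2 fold change -3.07 ± 0.20, adjusted p = 1.32e-09). Pi15, a secreted protease inhibitor, stood at 8.46, 7.97, 6.49 and 17.8 CPM in irradiated APTK libraries and 82.1, 74.7, 72.9 and 61.2 CPM in untreated libraries (log2 fold change -2.82 ± 0.22, adjusted p = 1.63e-08). Library IV was the highest of its group in both, and both stayed far below the untreated level. Sema3c, a secreted guidance cue, stood at 40.3, 42.8, 44.6 and 79.8 CPM in irradiated APTK libraries and 306, 271, 259 and 229.8 CPM in untreated libraries (log2 fold change -2.35 ± 0.18, adjusted p = 2.25e-08). Dpt (dermatopontin), a matrix protein that marks fibroblasts shared between organs, averaged 17.4 ± 2.39 CPM in irradiated APTK libraries and 83.7 ± 5.78 CPM in untreated libraries (SD, n = 4 each; log2 fold change -2.27 ± 0.10, adjusted p = 5.88e-15). Alcam, an adhesion molecule, averaged 14.9 ± 1.18 CPM in irradiated APTK libraries and 69.3 ± 6.33 CPM in untreated libraries (SD, n = 4 each; log2 fold change -2.22 ± 0.09, adjusted p = 2.39e-16). Vegfd, a lymphatic growth factor, fell by -2.43 as a log2 fold change, and Insc, Limch1, Kcnma1, Itgbl1, Fmod and Id4 had log2 fold changes of -2.88, -2.43, -2.41, -2.21, -2.04 and -2.002.

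**Figure D4:**
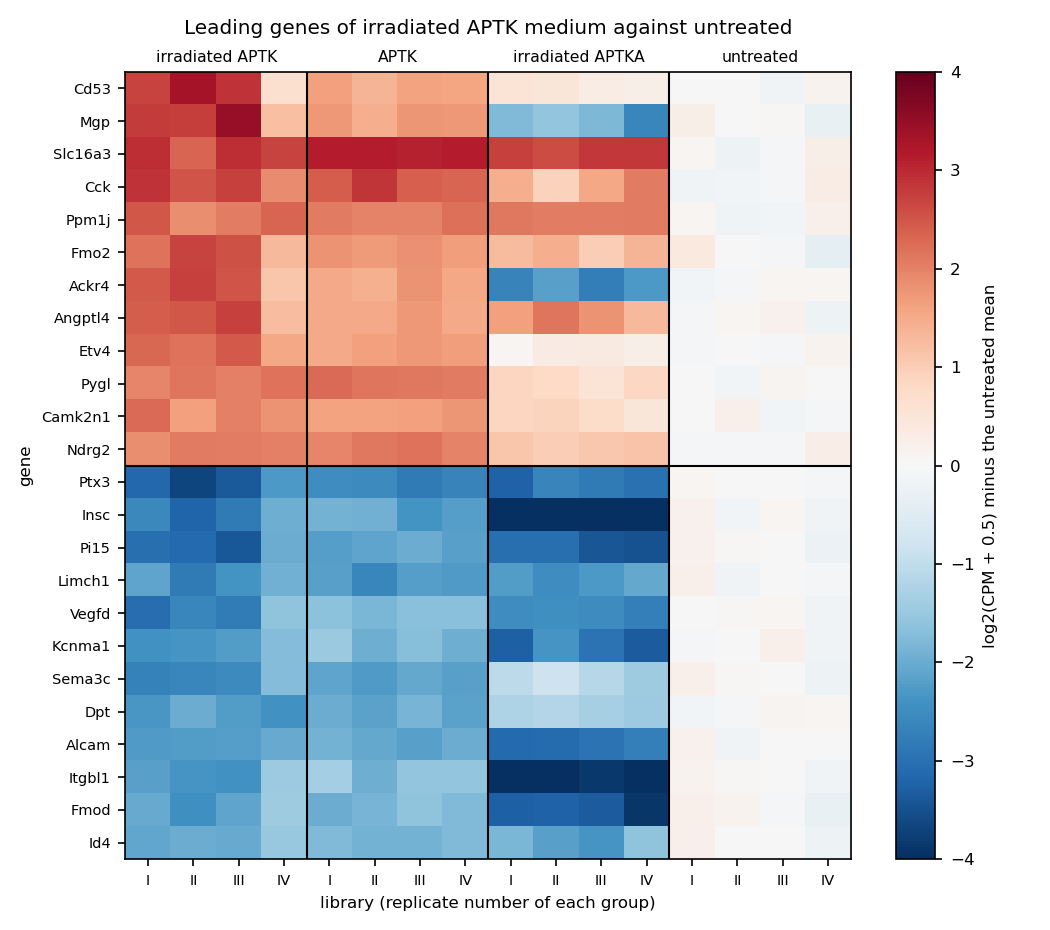
Heatmap of the 12 largest rises and 12 largest falls against untreated, as log2(CPM + 0.5) minus the untreated mean, in the libraries of irradiated APTK, APTK, irradiated APTKA and untreated fibroblasts. Library IV of the irradiated APTK group is paler than I to III in Cd53, Mgp and Ackr4, and Mgp and Ackr4 are below the untreated mean in irradiated APTKA libraries.

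Growth factors, their receptors and niche factors moved both ways. Of 33 tested growth and angiogenic factors 8 were higher and 14 lower, with a median log2 fold change of -0.13. Their risen share was near that of all genes (21.5%). Of 27 tested BMP and Wnt niche factors 9 were higher and 12 lower, with a median of -0.33. Fgf10, a growth factor for epithelium, stood at 92.8, 107, 76.9 and 94.1 CPM in irradiated APTK libraries and 25.4, 24.4, 21.4 and 21.9 CPM in untreated libraries (log2 fold change 1.99 ± 0.09, adjusted p = 8.20e-15). Fgf2 stood at 111, 136, 116 and 71.9 CPM in irradiated APTK libraries and 45.6, 44.7, 45.8 and 40.5 CPM in untreated libraries (log2 fold change 1.30 ± 0.13, adjusted p = 1.36e-07), and overlaps Nudt6. Pdgfra, the PDGF receptor that marks fibroblasts, stood at 249.6, 309, 271 and 228 CPM in irradiated APTK libraries and 76.5, 89.8, 78.6 and 80.6 CPM in untreated libraries (log2 fold change 1.70 ± 0.09, adjusted p = 2.68e-13). All 3 genes were higher in every irradiated APTK library. Fgfr2 and Met, receptors of FGF and of hepatocyte growth factor, fell by log2 fold changes of -0.52 and -0.39, among 4 receptors higher and 5 lower of 13 tested.

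Bmp3, a BMP family member that dampens the signalling of others, was almost lost: it stood at 0.110, 0.287, 0.0701 and 0.312 CPM in irradiated APTK libraries and 7.52, 5.26, 5.35 and 5.30 CPM in untreated libraries (log2 fold change -4.91 ± 0.28, adjusted p = 1.43e-13). Nog (noggin), a BMP antagonist, and Rspo2, an R-spondin that strengthens Wnt signalling, had few counts and fell too. Rspo2 stood at 0.275, 0.229, 0.210 and 0.273 CPM in irradiated APTK libraries against 2.199, 1.42, 1.80 and 1.72 CPM in untreated libraries (log2 fold change -2.84 ± 0.28, adjusted p = 3.64e-09), and Nog at 0.0573 to 0.351 CPM in irradiated APTK libraries against 0.898 to 1.16 CPM in untreated libraries (log2 fold change -2.37 ± 0.34, adjusted p = 1.95e-06). Id1 and Id3, inhibitors of bHLH factors and standard BMP targets, rose. Id3 stood at 49.0, 37.1, 50.3 and 33.2 CPM in irradiated APTK libraries and 10.4, 12.5, 13.5 and 17.5 CPM in untreated libraries (log2 fold change 1.65 ± 0.15, adjusted p = 2.88e-08). Id1 stood at 11.9, 8.72, 11.504 and 8.43 CPM in irradiated APTK libraries and 2.48, 2.54, 3.12 and 4.71 CPM in untreated libraries (log2 fold change 1.65 ± 0.15, adjusted p = 1.50e-09). Dkk2, a modulator of Wnt receptors, rose by 1.18 on the log2 scale, and Igfbp3, which binds insulin-like growth factors, fell with a log2 fold change of -2.29.

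Inflammatory genes moved both ways. Of 13 tested chemokines 7 were higher and 1 lower, with a median log2 fold change of 0.61, and without library III of the irradiated APTK group 4 were higher. Cxcl1, which draws neutrophils, stood at 4.62, 6.08, 4.21 and 7.65 CPM in irradiated APTK libraries and 3.36, 2.93, 3.36 and 3.32 CPM in untreated libraries (log2 fold change 0.80 ± 0.15, adjusted p = 1.13e-04). Cxcl10, an interferon-induced chemokine for T cells that overlaps Art3, stood at 3.08, 2.98, 2.00 and 4.68 CPM in irradiated APTK libraries and 1.52, 0.863, 0.781 and 1.05 CPM in untreated libraries (log2 fold change 1.59 ± 0.31, adjusted p = 2.40e-04). Ccl2, which draws monocytes, stood at 63.4, 73.7, 68.0 and 36.0 CPM in irradiated APTK libraries and 33.5, 39.6, 41.2 and 47.9 CPM in untreated libraries (log2 fold change 0.57 ± 0.18, adjusted p = 0.0162). Library IV lay within the untreated range of Ccl2, and the call was lost without library II or III (adjusted p = 0.0614 and 0.0516) or untreated library I (0.0540). Cxcl12, the niche chemokine for stem and immune cells, was the member that fell, averaging 99.4 ± 15.9 CPM in irradiated APTK libraries and 150.2 ± 19.7 CPM in untreated libraries (SD, n = 4 each; log2 fold change -0.60 ± 0.10, adjusted p = 5.51e-05). Cxcl5 was not called (log2 fold change 0.30 ± 0.16, adjusted p = 0.145), and Cxcl2, with 4 counts over the irradiated APTK libraries and 0 over the untreated libraries, was too scarce for a fold. Cxcl3 was called from 0, 0.115, 0.0701 and 0.351 CPM in irradiated APTK libraries and 1 count over the untreated libraries, so its fold is not given either; the call was lost without library IV (adjusted p = 0.176).

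Of 19 tested cytokines and mediators 5 were higher, a share near that of all genes (21.5%), and 2 were lower, Il33 and Ptx3; the values of Ptx3 are given above. Ptges, the inducible prostaglandin E synthase, stood at 56.7, 55.5, 65.4 and 51.6 CPM in irradiated APTK libraries and 19.6, 22.1, 23.5 and 25.1 CPM in untreated libraries (log2 fold change 1.35 ± 0.08, adjusted p = 2.60e-13). Ptgs1, a cyclooxygenase, stood at 385, 392.1, 406 and 252 CPM in irradiated APTK libraries and 143, 149, 155 and 171 CPM in untreated libraries (log2 fold change 1.21 ± 0.10, adjusted p = 1.78e-09). Ptgs2, the inducible cyclooxygenase, averaged 623 ± 58.0 CPM in irradiated APTK libraries and 475 ± 40.0 CPM in untreated libraries (SD, n = 4 each; log2 fold change 0.39 ± 0.08, adjusted p = 1.55e-04). The other members that rose were Csf1, a growth factor for macrophages, and Bdkrb2, a bradykinin receptor. Il33, an alarmin, fell to 0.273 to 0.842 CPM in irradiated APTK libraries, against 1.60 to 2.23 CPM in untreated libraries (log2 fold change -1.61 ± 0.26, adjusted p = 1.40e-05). Il6 and Lif were not called, at adjusted p of 0.251 and 0.185, and Saa3 stayed below 0.2 CPM in all 8 libraries. NF-kB subunits, inhibitors and targets were 4 higher and 7 lower of 21, where 21.5% and 22.2% of all genes were. The 7 became 3 when library III of the irradiated APTK group was left out and 4 when library I was. Nfkbiz, a nuclear cofactor of NF-kB, rose in all libraries (log2 fold change 0.86 ± 0.09, adjusted p = 1.68e-08) and Relb fell (log2 fold change -0.57 ± 0.10, adjusted p = 2.66e-05). Among 20 receptors and feedback genes of IL-1 and the IL-6 family, 6 rose and 5 fell, where 21.5% and 22.2% of all genes did. Il1r1, the IL-1 receptor, stood at 60.3, 72.5, 69.4 and 57.2 CPM in irradiated APTK libraries and 41.7, 42.8, 39.0 and 41.9 CPM in untreated libraries (log2 fold change 0.65 ± 0.08, adjusted p = 3.35e-07). Il1rl1, the receptor for Il33, stood at 2.64, 2.70, 3.19 and 1.99 CPM in irradiated APTK libraries and 8.72, 10.5, 10.5 and 9.71 CPM in untreated libraries (log2 fold change -1.90 ± 0.12, adjusted p = 2.07e-12). Of 10 tested complement genes 2 rose and 3 fell, not far from the shares of all genes. Among those that fell was Cd55, which shields cells from complement (log2 fold change -1.49 ± 0.17, adjusted p = 5.24e-08).

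Matrix genes were lower more often than higher. Collagens were 2 higher and 11 lower of 22, with a median log2 fold change of -0.22. Col14a1, a fibril-associated collagen, stood at 22.8, 22.99, 28.4 and 31.0 CPM in irradiated APTK libraries and 92.0, 101, 87.2 and 73.0 CPM in untreated libraries (log2 fold change -1.74 ± 0.15, adjusted p = 2.25e-08). Col8a2 and Col5a3 had log2 fold changes of -1.04 and -1.03, and Col7a1, of anchoring fibrils, rose by 0.34. Col1a1, the main fibrillar collagen, was not called and its libraries overlapped (log2 fold change -0.18 ± 0.12, adjusted p = 0.256). Crosslinking and processing genes were 1 higher and 10 lower of 15 (6 lower in a fit of the 8 libraries alone). Lox, the lysyl oxidase that crosslinks collagen, averaged 4284 ± 599.6 CPM in irradiated APTK libraries and 7076 ± 428 CPM in untreated libraries (SD, n = 4 each; log2 fold change -0.72 ± 0.08, adjusted p = 1.29e-08). Its relative Loxl3, which overlaps Htra2, was the member that rose, at 400.3, 356, 412 and 265 CPM in irradiated APTK libraries and 155, 156, 165 and 187 CPM in untreated libraries (log2 fold change 1.11 ± 0.09, adjusted p = 3.33e-09).

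Of 35 matrix glycoproteins and proteoglycans 5 were higher and 12 lower. Spp1 (osteopontin) stood at 60.6, 64.0, 67.0 and 10.6 CPM in irradiated APTK libraries and 11.7, 12.1, 12.5 and 12.9 CPM in untreated libraries (log2 fold change 2.03 ± 0.38, adjusted p = 4.03e-04). Libraries I to III were about alike and high, and library IV lay below every untreated library, so the groups overlapped, and without it the log2 fold change was 2.38. Thbs1 (thrombospondin) rose by 0.54 on the log2 scale. Fbn2, a fibrillin, and Cilp, of the cartilage matrix, fell, Fbn2 to 37.2, 30.7, 42.9 and 68.5 CPM in irradiated APTK libraries against 170.3, 166, 160.0 and 155 CPM in untreated libraries (log2 fold change -1.85 ± 0.21, adjusted p = 2.34e-06). Matrix proteases and inhibitors were 3 higher and 11 lower of 26 tested. Mmp19 rose (log2 fold change 0.73 ± 0.06, adjusted p = 2.22e-10), and Timp3, an inhibitor of metalloproteinases that overlaps Syn3, fell to 142, 129.9, 128 and 141 CPM in irradiated APTK libraries, against 418, 397, 372 and 347 CPM in untreated libraries (log2 fold change -1.51 ± 0.06, adjusted p = 1.52e-16). The stromelysin Mmp3 was near the detection limit, at 0.770, 0.975, 1.23 and 0 CPM in irradiated APTK libraries and 0.520, 0.216, 0.586 and 0.149 CPM in untreated libraries.

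Contractile genes were 5 higher and 2 lower of 20 tested, the risen share being near that of all genes (21.5%). Des, Lmod1 and Tpm4 rose most, though the call of Des was lost in 6 of 8 cases with 1 library left out. Among these was the omission of library IV of the irradiated APTK group (adjusted p = 0.154). The 2 that fell were Flna and Acta2. Acta2, the smooth muscle actin of myofibroblasts, stood at 3499, 3107, 3166 and 3183 CPM in irradiated APTK libraries and 3826, 3318, 3802 and 4119 CPM in untreated libraries, overlapped between the groups and fell slightly (log2 fold change -0.22 ± 0.07, adjusted p = 0.0187), a call that was lost without library IV of the untreated group (adjusted p = 0.0754). Ligands, receptors and feedback genes of TGF-beta were 8 higher and 3 lower of 22. The activin subunits Inhba and Inhbb rose by 0.71 and 0.68 on the log2 scale, Tgfbr3 by 1.04, and the signalling receptor Tgfbr2 fell (log2 fold change -0.54 ± 0.06, adjusted p = 4.53e-08). Tgfb1 was not called (log2 fold change 0.00 ± 0.11, adjusted p = 0.986). YAP and TEAD targets were 4 higher and 8 lower of 14. Ccn2, a matricellular target of YAP and TGF-beta, stood at 2139, 2019, 2046 and 2054 CPM in irradiated APTK libraries and 1005, 1001, 1042 and 991 CPM in untreated libraries (log2 fold change 1.03 ± 0.06, adjusted p = 3.53e-13), while its relative Ccn1 fell (log2 fold change -0.45 ± 0.08, adjusted p = 2.76e-05).

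Cell cycle genes leaned upward. DNA replication genes were 17 higher and 4 lower of 39, with a median log2 fold change of 0.21, and mitotic genes were 9 higher and 1 lower of 27, with a median of 0.14. Ccne1, the cyclin of entry into S phase, stood at 24.3, 24.3, 26.8 and 21.2 CPM in irradiated APTK libraries and 11.0, 12.3, 12.8 and 14.0 CPM in untreated libraries (log2 fold change 0.94 ± 0.09, adjusted p = 9.87e-10). Cdk1, the kinase of mitotic entry, stood at 21.9, 23.3, 20.1 and 16.7 CPM in irradiated APTK libraries and 10.2, 10.6, 10.6 and 12.8 CPM in untreated libraries (log2 fold change 0.88 ± 0.09, adjusted p = 1.15e-08). Both were higher in every irradiated APTK library. Mcm7, of the replicative helicase, and Rrm1, of ribonucleotide reductase, fell instead, by log2 fold changes of -0.61 and -0.45, and Mki67, the proliferation marker, was not called (log2 fold change 0.25 ± 0.15, adjusted p = 0.187). CDK inhibitors and senescence genes were 3 higher and 7 lower of 14. Cdkn1c (p57) stood at 12.3, 12.04, 11.1 and 15.2 CPM in irradiated APTK libraries and 44.8, 43.1, 46.6 and 43.4 CPM in untreated libraries (log2 fold change -1.81 ± 0.10, adjusted p = 1.65e-13). Cdkn2a fell as well (log2 fold change -0.41 ± 0.09, adjusted p = 0.00138), with library II the lowest. DNA damage and repair genes were 7 higher and 6 lower of 26, shares near those of all genes (21.5% and 22.2%), and 4 higher without library II. Brca1, of homologous recombination, rose (log2 fold change 0.68 ± 0.12, adjusted p = 5.41e-05), and the damage kinases Atr and Atm fell by log2 fold changes of -0.70 and -0.54.

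Further lists were smaller or mixed, and are to be read beside the 21.5% of all genes higher and 22.2% lower. Semaphorins, plexins and neuropilins had no member higher and 10 lower of 21. The largest falls were those of Plxna4 (log2 fold change -1.89 ± 0.15, adjusted p = 1.53e-10), Sema5a and Sema3d. Integrins and adhesion receptors were 7 higher and 9 lower of 22, with Itga11, a collagen receptor of fibroblasts, up by 0.70 on the log2 scale and Ncam1 lower at a log2 fold change of -1.18. Adventitial and quiescent fibroblast genes were 3 higher and 8 lower of 18 tested, with a median log2 fold change of -0.32. Their largest falls were those of Scara5, Sema3c and Dpt, and the 3 that rose were Ackr4, Procr and Cd34. Cd34 stood at 739, 819.8, 702 and 567 CPM in irradiated APTK libraries and 358, 348, 355 and 411 CPM in untreated libraries (log2 fold change 0.94 ± 0.08, adjusted p = 1.25e-09). Procr, the protein C receptor, rose as well (log2 fold change 1.14 ± 0.08, adjusted p = 2.90e-12). Retinoic acid genes were 6 higher and 1 lower of 13 tested, with Cyp26b1, which breaks retinoic acid down, up by 1.70 on the log2 scale. Circadian clock genes were 4 higher and 1 lower of 18, a share near the background, led by Per2, a repressor of the clock (log2 fold change 1.03 ± 0.08, adjusted p = 5.30e-11).

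Metabolic and folding lists were mixed. NRF2 antioxidant genes were 1 higher and 9 lower of 20, with Gsr and Txnrd1, reductases of glutathione and thioredoxin, both at a log2 fold change of -0.45. Cholesterol and fatty acid synthesis genes were 5 higher and 8 lower of 31, where 21.5% and 22.2% of all genes were. Sqle, squalene epoxidase, was lower (log2 fold change -0.63 ± 0.06, adjusted p = 6.99e-09) and Stard4, a sterol carrier, higher (log2 fold change 0.81 ± 0.12, adjusted p = 4.97e-06). Without library IV of the untreated group that list was 8 higher and 5 lower. Endoplasmic reticulum folding genes were 6 higher and 2 lower of 21 (21.5% and 22.2% of all genes), and 10 higher without library IV of the irradiated APTK group. Mitochondrially encoded genes were 5 higher of 7 tested. Of these, mt-Nd5 stood at 141, 189, 56.2 and 107 CPM in irradiated APTK libraries and 60.9, 55.7, 52.8 and 52.1 CPM in untreated libraries (log2 fold change 1.14 ± 0.25, adjusted p = 0.00175), with library III at the untreated level. The list had 2 members higher without library I, 2 without library II and none without both, the libraries with the highest mitochondrial shares, and without both the call of mt-Nd5 was lost (adjusted p = 0.0549). In a fit of the 8 libraries alone 1 member was higher. The part of this share in other results was not tested.

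Markers of the labelled cell type were abundant. The summed level of 11 fibroblast markers was 42041 to 51397 CPM in irradiated APTK libraries and 56091 to 63080 CPM in untreated libraries. Of these markers 4 were higher (Pdgfra, Thy1, Vim and Fap) and 2 lower (Col3a1 and Pdgfrb). Col3a1, a large part of the sum, averaged 16916 CPM in irradiated APTK libraries and 26346 CPM in untreated libraries. Of 10 epithelial markers 3 passed the filter and none was called, with sums of 2.10 to 2.58 CPM in irradiated APTK libraries and 1.72 to 2.28 CPM in untreated libraries. Epcam had 2 counts over the irradiated APTK libraries and 3 over the untreated libraries, and Krt8 had none. Of 9 macrophage markers 4 were tested and 1 was higher (Cd14), with sums of 9.12 to 11.7 CPM in irradiated APTK libraries and 9.92 to 11.0 CPM in untreated libraries. Of 8 endothelial markers 5 were tested, 2 higher and 3 lower, with sums of 9.06 to 11.6 CPM in irradiated APTK libraries and 9.56 to 11.1 CPM in untreated libraries, and the defining Cdh5 had at most 1 count. Pericyte and smooth muscle markers were 2 higher and 3 lower of 9, where 21.5% and 22.2% of all genes were. Fabp4 was the 1 adipocyte marker called, with a log2 fold change of 2.09. No lymphocyte or mesothelial marker passed the filter, and 7 of 8 neutrophil and mast cell markers had no count. The part of these cell types in the results was not tested beyond these values.

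Irradiated APTK medium differed from plain APTK medium in few genes. Of the 14820 genes, 205 (1.38%) were called, 81 higher (0.547%) and 124 lower (0.837%), of which 9 and 14 changed at least 2-fold. With library totals in place of TMM scaling the split was 50 higher and 165 lower, and by DESeq2 it was 221 and 218. The result depended on single libraries: 693 genes were higher and 578 lower without library IV of the irradiated APTK group, 41 and 81 without library II, 13 and 20 without library I and 18 and 29 without library III. Leaving out plain APTK library II, III or IV gave 22 and 37, 10 and 22, or 27 and 45. A fit of the 8 libraries alone gave 6 higher and 4 lower. Of the 6468 genes called against untreated, 5094 were called with the same sign in plain APTK medium and none with the opposite sign; both comparisons use the same untreated libraries.

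Nqo1, an NRF2 target that detoxifies quinones, stood at 78.5, 86.1, 79.0 and 64.1 CPM in irradiated APTK libraries and 51.0, 43.2, 40.7 and 44.8 CPM in plain APTK libraries (log2 fold change 0.77 ± 0.09, adjusted p = 4.42e-05). Id1 stood at 11.9, 8.72, 11.504 and 8.43 CPM in irradiated APTK libraries and 5.76, 5.47, 5.38 and 5.52 CPM in plain APTK libraries (log2 fold change 0.88 ± 0.14, adjusted p = 0.0025). Plk3, a polo-like kinase of the stress response that overlaps Tctex1d4, stood at 11.1, 10.8, 12.4 and 10.6 CPM in irradiated APTK libraries and 7.14, 7.27, 7.72 and 7.30 CPM in plain APTK libraries (log2 fold change 0.61 ± 0.09, adjusted p = 0.00158). These 3 genes were higher in every irradiated APTK library, and their calls held under all 17 alternatives. Fos stood at 13.4, 12.6, 7.72 and 9.76 CPM in irradiated APTK libraries and 5.57, 6.16, 4.94 and 4.16 CPM in plain APTK libraries (log2 fold change 1.04 ± 0.21, adjusted p = 0.0174), and its call was lost without library I or II (adjusted p = 0.0694 and 0.0626) and without plain APTK library III or IV (0.0697 and 0.0579). Tnfrsf21 and Gja1, a death receptor and a gap junction protein, rose by 0.69 and 0.55 on the log2 scale, and neither was called in irradiated APTK libraries against untreated (log2 fold changes of 0.02 and -0.10). Malrd1 was called too (log2 fold change 0.66 ± 0.14, adjusted p = 0.0174). Leaving out 1 library at a time ended the call of Malrd1 in 5 of 8 cases and that of Gja1 in 1, without library III (adjusted p = 0.0559).

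Trib3 and Chac1 led the falls. Trib3 stood at 23.4, 41.0, 28.5 and 68.9 CPM in irradiated APTK libraries and 104.7, 83.8, 90.9 and 93.8 CPM in plain APTK libraries (log2 fold change -1.20 ± 0.25, adjusted p = 0.0287). Chac1 stood at 9.12, 21.3, 10.3 and 13.7 CPM in irradiated APTK libraries and 32.6, 29.2, 28.4 and 32.3 CPM in plain APTK libraries (log2 fold change -1.19 ± 0.17, adjusted p = 0.0025). Sesn2 stood at 80.6, 87.5, 76.6 and 77.0 CPM in irradiated APTK libraries and 109.8, 108, 117 and 112 CPM in plain APTK libraries (log2 fold change -0.47 ± 0.06, adjusted p = 4.42e-05). All 3 were lower in every irradiated APTK library, and 6 of the 31 integrated stress response genes were lower and none higher, against 0.837% and 0.547% of all genes. The 6 became 1 without library I and 2 without library III, 2 and 3 without plain APTK library III or IV, and 0 in a fit of the 8 libraries alone. Trib3 kept its call in 7 of the 17 alternatives, and with 1 library left out at a time it kept the call in 1 of 8 cases, without library IV. Of the interferon-stimulated genes 8 of 34 were lower, but 26 without library IV of the irradiated APTK group, 18 without plain APTK library I, 3 without library II, and none without library I or III or plain APTK library II or III; without plain APTK library IV there were 2, by DESeq2 14, and none in a fit of the 8 libraries alone. Among the 8 was Bst2 at 27.0, 25.3, 27.1 and 33.5 CPM in irradiated APTK libraries and 37.7, 53.8, 69.9 and 51.1 CPM in plain APTK libraries (log2 fold change -0.91 ± 0.18, adjusted p = 0.0186), whose call was lost without library I, II or III (adjusted p = 0.0723, 0.0639 and 0.0707) and without plain APTK library II or III (0.0636 and 0.0697). Cxcl5, a chemokine for neutrophils, stood at 7.20, 6.08, 6.94 and 9.29 CPM in irradiated APTK libraries and 12.8, 14.7, 15.4 and 11.9 CPM in plain APTK libraries (log2 fold change -0.88 ± 0.15, adjusted p = 0.00769). Mfap4, of the elastic fibres, stood at 4.62, 4.82, 5.16 and 5.54 CPM in irradiated APTK libraries and 8.95, 8.11, 8.70 and 8.23 CPM in plain APTK libraries (log2 fold change -0.75 ± 0.12, adjusted p = 0.00158), and overlaps Mapk7. Angpt4, Igfbp5 and Prss35 had log2 fold changes of -0.84, -0.84 and -0.77; leaving out 1 library ended the call of Angpt4 in 3 of 8 cases (without library I or III or plain APTK library III) and that of Igfbp5 in 7, all but library IV of the irradiated APTK group. Of the glycolysis and hypoxia genes Slc2a1, Pfkl, Pdk1 and Pfkp were lower than in plain APTK medium, by log2 fold changes of -0.28, -0.26, -0.23 and -0.20, and 6 of 31 cholesterol and fatty acid synthesis genes were lower. None of the 4 calls was kept in a fit of the 8 libraries alone, and none of the 6 either. With 1 library left out at a time the 4 became 0 to 6 and the 6 became 0 to 9, with 3 of each without library II and 6 and 9 without library IV. Slc2a1 and Pfkl lost the call without library II (adjusted p = 0.0779 and 0.0642).

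Spp1 and the metalloproteinases Mmp10 and Mmp13, the last 2 chosen after their values were seen, show the split within the irradiated APTK group. Spp1 stood at 60.6, 64.0, 67.0 and 10.6 CPM in irradiated APTK libraries and 14.3, 12.1, 14.7 and 10.9 CPM in plain APTK libraries (log2 fold change 1.94 ± 0.37, adjusted p = 0.0198). Mmp10 stood at 6.93, 8.37, 6.91 and 0.859 CPM in irradiated APTK libraries and 1.08, 1.72, 1.28 and 1.06 CPM in plain APTK libraries (log2 fold change 2.11 ± 0.48, adjusted p = 0.0413). Against untreated Mmp10 was not called (log2 fold change 0.65, adjusted p = 0.216). Library IV lay below the plain APTK libraries in both genes and libraries I to III far above them. Without library IV the log2 fold changes were 2.29 for Spp1 and 2.51 for Mmp10, and without library II the adjusted p was 0.0528 and 0.104. Mmp13 stood at 0.879, 0.860, 1.05 and 0.390 CPM in irradiated APTK libraries and 0.269, 0.382, 0.256 and 0.0424 CPM in plain APTK libraries (log2 fold change 1.69 ± 0.36, adjusted p = 0.0178). With 1 library left out at a time the call was lost in 6 of 8 cases for Spp1, 7 for Mmp10 and 4 for Mmp13.

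**Figure D5:**
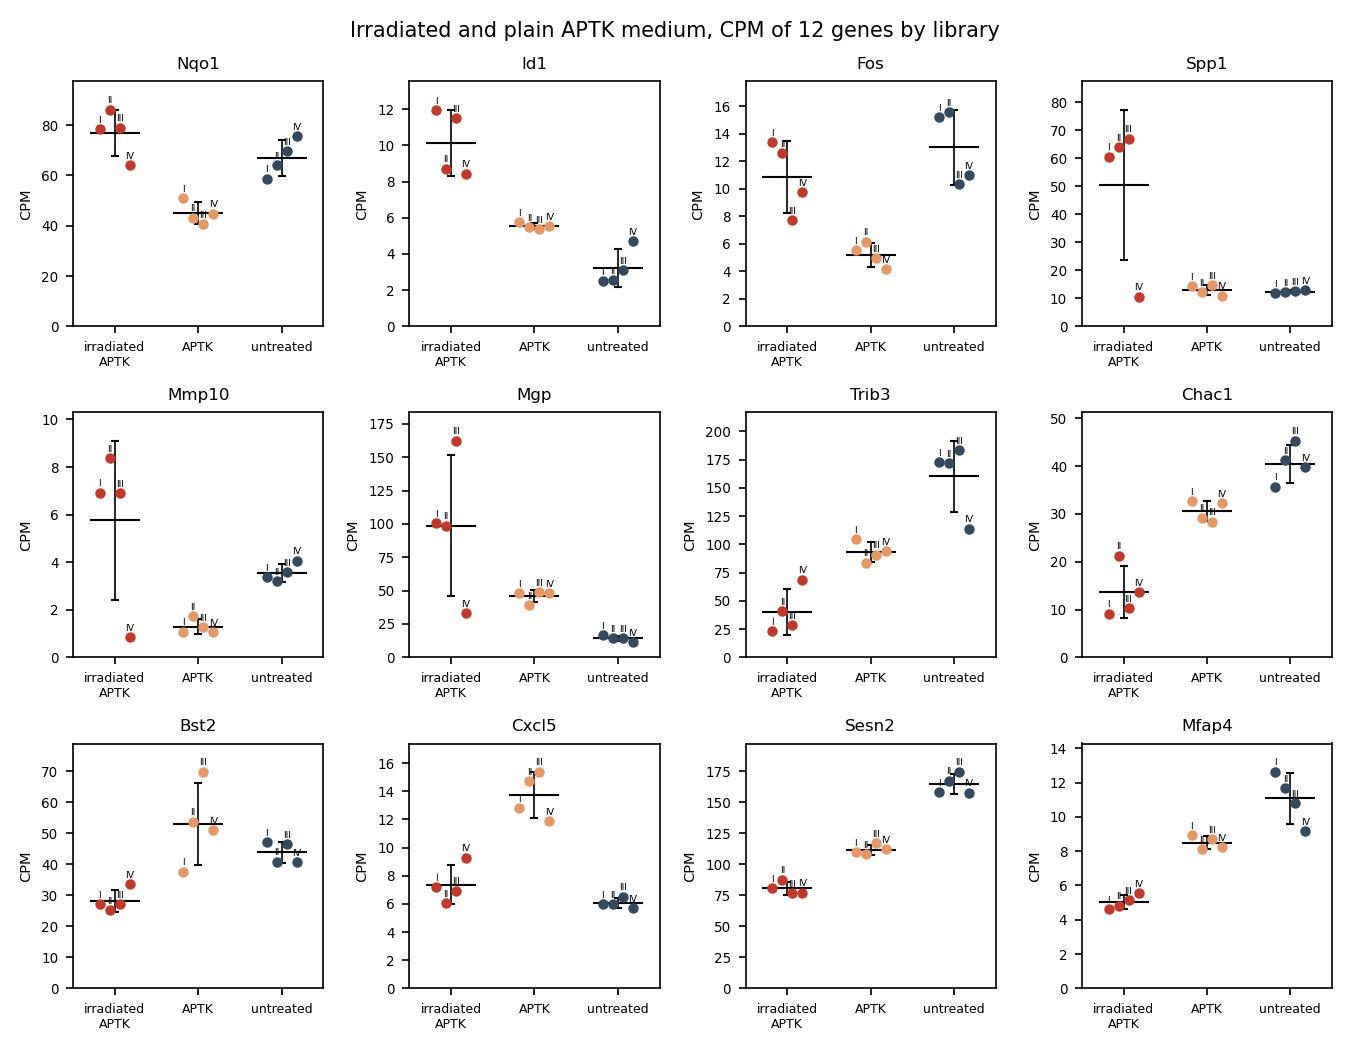
CPM of 12 genes in the 4 libraries (points) of irradiated APTK, APTK and untreated fibroblasts, with the mean as a line and the SD as bars. Nqo1, Id1 and Fos are higher and Trib3, Chac1, Sesn2 and Mfap4 lower in every irradiated APTK library than in any plain APTK library, while library IV lies apart from I to III in Spp1 and Mmp10.

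Irradiated APTK medium differed widely from irradiated APTKA medium, with 9090 genes called (61.3%), 4622 higher (31.2%) and 4468 lower (30.1%), and 1088 and 593 of them changed at least 2-fold. Interferon-stimulated genes were higher in 33 of 34 members. Against untreated, 32 of the 34 were lower in irradiated APTKA fibroblasts (median log2 fold change -2.08), where 4441 of all 14820 genes were. In irradiated APTK fibroblasts 9 of the 34 were higher than in untreated ones (median 0.35). Ifit3, an antiviral protein with the near copy Ifit3b, stood at 72.3, 111, 50.8 and 109 CPM in irradiated APTK libraries and 5.58, 7.96, 6.21 and 4.37 CPM in irradiated APTKA libraries (log2 fold change 3.82 ± 0.37, adjusted p = 1.84e-07). Isg15 stood at 12.4, 16.1, 11.3 and 19.4 CPM in irradiated APTK libraries and 0.8285, 2.11, 1.36 and 1.15 CPM in irradiated APTKA libraries (log2 fold change 3.42 ± 0.35, adjusted p = 1.95e-07). Ackr4 stood at 41.1, 50.4, 42.5 and 15.7 CPM in irradiated APTK libraries and 0.684, 1.18, 0.621 and 1.04 CPM in irradiated APTKA libraries (log2 fold change 5.37 ± 0.33, adjusted p = 2.94e-10). Pdgfra stood at 249.6, 309, 271 and 228 CPM in irradiated APTK libraries and 61.1, 68.4, 55.7 and 58.9 CPM in irradiated APTKA libraries (log2 fold change 2.11 ± 0.09, adjusted p = 1.26e-15). These genes were above the range of the irradiated APTKA libraries in every irradiated APTK library. Mgp, Abca8a and Oasl2 had log2 fold changes of 4.83, 4.78 and 3.59.

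Inflammatory lists lay on the other side. Chemokines were 1 higher and 9 lower of 13 tested, cytokines and mediators 3 higher and 14 lower of 19, and NF-kB genes 2 higher and 18 lower of 21. Cxcl1 stood at 4.62, 6.08, 4.21 and 7.65 CPM in irradiated APTK libraries and 76.7, 85.8, 88.2 and 80.8 CPM in irradiated APTKA libraries (log2 fold change -3.88 ± 0.11, adjusted p = 4.51e-19). Tnfaip3, an NF-kB target that restrains the pathway, stood at 6.87, 7.05, 7.68 and 7.03 CPM in irradiated APTK libraries and 87.4, 98.5, 105.4 and 105.1 CPM in irradiated APTKA libraries (log2 fold change -3.78 ± 0.09, adjusted p = 8.88e-23). Saa3, an acute phase protein, stood at 0.0550, 0.0573, 0.0351 and 0.0781 CPM in irradiated APTK libraries and 42.2, 63.6, 36.1 and 19.5 CPM in irradiated APTKA libraries. None of these libraries overlapped between the groups. Il1rl1 stood at 2.64, 2.70, 3.19 and 1.99 CPM in irradiated APTK libraries and 56.4, 48.2, 57.6 and 46.8 CPM in irradiated APTKA libraries (log2 fold change -4.31 ± 0.11, adjusted p = 1.86e-21). Mdm2 and Cdkn1a were lower in irradiated APTK libraries, by log2 fold changes of -1.21 and -1.13, with Cdkn1a at 129, 115, 122 and 138 CPM in irradiated APTK libraries and 279, 262, 294 and 265 CPM in irradiated APTKA libraries. Stmn4, Cxcl5 and Atf3 had log2 fold changes of -6.75, -4.02 and -3.94. Of the genes called both against untreated and here, 3172 had the same sign in both comparisons and 1430 the opposite sign; the irradiated APTK libraries are shared by the 2 comparisons.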

How the data were processed

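Gene counts of 20 libraries, 4 in each of 5 groups, were used as the authors deposited them: whole-number counts per Ensembl gene. Per the submitters' processing notes the tools were bcl2fastq 2.20.0.422, STAR 2.5.2a and featureCounts 1.5.0-p1 on mm10; of the annotation release, strand setting and multiply mapped reads nothing is given in the sources used here, so reads of overlapping genes and of near copies may be shared (71 of the 248 genes chosen for naming share exon sequence with another gene). Symbols came from GENCODE M21 for 47310 of 47729 identifiers.

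All libraries entered 1 edgeR 4.0.16 quasi-likelihood fit (R 4.3.3) with 5 group means, TMM scaling and the default filter on low counts, leaving 14820 genes and 15 residual degrees of freedom. Adjusted p-values are Benjamini-Hochberg values over all tested genes, calls need 0.05 or less, and ± beside a log2 fold change is its standard error. CPM uses TMM-scaled totals. The code was tested on simulated data. DESeq2 1.42.0, other scalings, filters, sample sets, thinned counts, a replicate block and the omission of single libraries were tried as alternatives.

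The 35 gene lists (817 genes, 773 tested), the markers and the naming rule were chosen with earlier results of these data known. Named are the largest changes without overlap at a mean log2 CPM of at least 2 (12 rises and 12 falls against untreated, 8 and 8 against APTK, 6 and 6 against irradiated APTKA), up to 3 rises and 3 falls of each list, 25 fixed genes, and members making up counts of 5 or fewer. A few results that fall under this rule or the marker lists are not reported here.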

Additional observations from a re-analysis of the deposited data

Results flagged for a closer look

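Each named gene was examined for a library far from the other 3 of its group, by a Dixon criterion for groups of 4 that chance meets in about 1 of 20 groups. It was met in 35 of 496 groups (7.06%), 18 times in irradiated APTK and 17 times in untreated libraries. In the irradiated APTK group library IV stood apart from I to III in 9 genes, with 79.8 CPM of Sema3c, 5.15 of Id4, 10.6 of Spp1, 853 of Lamb1, 199 of Adamts1, 252 of Ptgs1, 36.3 of Procr, 0.664 of Aldh1a2 and 32.5 of Rarb. Library II stood apart in 8 genes, with 57.1 CPM of Bnip3, 62.5 of Dusp6, 10.8 of Bbc3, 37.9 of Cebpb, 2.75 of Fanca, 35.5 of Atr, 31.0 of Nbn and 18.8 of Mvk. Library III stood apart in Ccn1, at 247 CPM.

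In the untreated group library IV stood apart in 10 genes, with 16.02 CPM of Cck, 9.52 of Ndrg2, 114 of Trib3, 0.0373 of Cxcl3, 535 of Ptgs2, 69.9 of Il4ra, 4.44 of Ccne2, 12.8 of Cdk1, 411 of Cd34 and 352 of Ccn1. Untreated library III stood apart in Pycr1 (36.8 CPM) and Itga11 (979 CPM). Untreated library II stood apart in Des (1.64 CPM), Cxcl1 (2.93 CPM) and Cxcl12 (179.8 CPM), and library I in Bmp3 (7.52 CPM) and Ifit3b (18.9 CPM).

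A total of 43 named genes, 3 of them (Dusp6, Pycr1 and Itga11) also listed above, were called in opposite directions against untreated in irradiated APTK and in irradiated APTKA fibroblasts, and were called in the direct comparison of the 2 media. The comparisons with untreated share the untreated libraries, and the direct one shares libraries with both. Log2 fold changes below are irradiated APTK over irradiated APTKA. Higher in irradiated APTK fibroblasts were Mgp (4.83), Ackr4 (5.37), Abca8a (4.78) and Pdgfra (2.11). The interferon-related genes Mx1 (4.36), Rsad2 (3.63), Isg15 (3.42), Tgtp2 (4.18), Igtp (1.94) and Iigp1 (4.96) were higher as well. So were Pfkp (0.51), Dusp6 (2.199), Sesn1 (0.66), Pycr1 (1.96), Mmp19 (1.04), Il1r1 (1.09), Glb1 (0.71), Per3 (0.64), Itga11 (2.09), Itga8 (1.07) and Malrd1 (1.22). The sterol and lipid genes Stard4 (1.72), Sc5d (1.30) and Scd1 (0.63), the chaperone Calr (1.23) and mt-Nd2 (1.36) completed the higher genes. Lower in irradiated APTK fibroblasts were the AP-1 genes Jun (-1.95) and Fosl2 (-1.12) and the stress factor Atf3 (-3.94). The p53 targets Cdkn1a (-1.13) and Mdm2 (-1.21) were lower too, and so were the ligands and antagonists Rspo2 (-3.36), Nog (-3.01) and Fgf9 (-2.86). Of the immune genes Il1rl1 (-4.31), Relb (-1.43) and Nfkbib (-1.19) were lower. The others were Hk2 (-0.67), Mcm7 (-0.91), Rrm1 (-0.68), Nfil3 (-1.22), Ajuba (-0.84) and Stmn4 (-6.75). The calls against untreated of Isg15, Tgtp2, Iigp1, Glb1, Malrd1 and mt-Nd2 were lost when some single libraries were left out, at adjusted p of up to 0.103, 0.104, 0.0585, 0.175, 0.164 and 0.0917. Those of Malrd1 and mt-Nd2 were among the calls lost without library II of the irradiated APTK group (adjusted p = 0.0942 and 0.0917).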

How the results depend on the processing

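Against untreated and against irradiated APTKA medium, the counts of genes higher, lower and changed at least 2-fold stayed within 1.5 times under all alternatives. Of the 218 named genes called against untreated, 184 kept the call under every alternative that tested them and 34 lost it under some. A few genes fell below the filter of some alternatives and were not tested there. Irradiated against plain APTK medium was unstable. Its 81 higher genes became 221 with DESeq2, 50 with library totals alone, 197 with no filter on low counts, 6 in a fit of the 8 libraries alone and 6 without libraries I and II together. Its 124 lower genes became 218 with DESeq2, 295 with no filter, 4 in the fit of 8 libraries and 21 without libraries I and II. Its 23 genes changed at least 2-fold were 28 by DESeq2 on all 20 libraries and 2 without libraries I and II. They were 0 by edgeR in the fit of 8 libraries, where 10 genes were called at any size. In the edgeR fit of all libraries 2213 genes passed an unadjusted p of 0.05. Leaving out 1 library at a time gave 10 to 693 higher, 20 to 578 lower and 1 to 109 changed at least 2-fold; the cause was not tested. Of 39 named genes called there, 6 kept the call under every alternative that tested them. With 1 library left out at a time, the log2 fold change against irradiated APTKA medium ran between -0.34 and 0.14 for Rarb and between -0.28 and 0.31 for Vegfd, both lowest without library IV of the irradiated APTK group.

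Same-numbered libraries of the irradiated APTK and untreated groups had correlations of their deviations between -0.108 and 0.094. No irradiated APTK library matched its own number best there. Against plain APTK libraries the correlations were 0.012 to 0.052, and libraries I, III and IV matched their own number best, while II matched I. Against irradiated APTKA libraries they ran from -0.086 to 0.054, and only library III matched its own number best. Values this small, from so few libraries, cannot decide whether the numbers pair libraries. With a replicate block 3104 genes were higher and 3238 lower against untreated, 69 and 109 against plain APTK medium, and 4585 and 4446 against irradiated APTKA medium.

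Among lists with at least 5 members called one way against untreated, these counts moved by more than 1.5 times besides those given above. In a fit of the 8 libraries alone, 3 receptor and feedback genes of IL-1 and the IL-6 family, 4 chemokines and 4 DNA repair genes were higher, and 4 NF-kB genes and 2 growth factor receptors lower. Without the 2 shallower libraries, I and II, 2 interferon-inducible GTPases, 3 contractile and 3 DNA repair genes were higher, and 3 NF-kB genes, 3 growth factor receptors, 4 CDK inhibitors and senescence genes, 5 YAP and TEAD targets and 5 lipid synthesis genes lower. Matrix glycoproteins had 8 higher with upper quartile scaling and 9 with library totals alone or no filter. NF-kB genes had 4 lower with upper quartile scaling, library totals alone, thinned counts or without untreated library I. DESeq2 called 4 DNA repair genes higher, and mitochondrial genes had 3 higher without untreated library II or IV. Depth limits genes with few counts, such as Saa3 and Cxcl3, whose log2 fold changes against untreated had standard errors of 3.19 and 1.10.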
